A study of Mus musculus with 3 samples.

Results

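The genes of the constitutive proteasome were examined on single-colour CodeLink arrays of mouse fetal liver. They were found as the probes whose annotated symbol is Psma, Psmb, Psmc or Psmd followed by a number and nothing more, leaving out the immunoproteasome genes Psmb8, Psmb9 and Psmb10. The rule gave 34 genes, on 35 probes, of 13697 genes with a single symbol: 8 Psma, 7 Psmb, 5 Psmc and 14 Psmd genes. The probe of Psmc3ip, whose symbol goes on past the digit and whose product acts in meiotic recombination, was not counted.

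The livers came from embryos at stage E14.5 of 3 genotypes with 1 array each. In the first, called double-deficient, DNase II and IFN-IR (the type I interferon receptor) were both missing, the second was DNase II-deficient, and the last was wild-type. Both mutants therefore share the loss of DNase II, an enzyme of the macrophage lysosome that breaks down DNA from engulfed cells. The labels state neither the alleles nor how many embryos stood behind an array. Because each genotype has a single array, no difference below has a replicate check or a test, and every direction rests on the genotype that the labels give.

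The proteasome is the barrel-shaped protease that destroys proteins tagged with ubiquitin. Its 20S core is built from rings of α subunits (Psma genes), which guard the entrance, and rings of β subunits (Psmb genes), which hold the cutting sites. The 19S regulatory particle (Psmc and Psmd genes) recognises the tagged protein, removes the ubiquitin, unfolds the chain and feeds it into the core. Interferon makes cells replace the constitutive cutting subunits by the immunoproteasome forms. In the fetal liver, where red cells form at this stage, the ubiquitin-proteasome system also clears proteins as red cells mature.

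Probes of the targeted genes did not check the labels. Dnase2a read 39.7 normalised intensity units in the double-deficient, 48.6 in the DNase II-deficient and 40.4 in the wild-type array, Ifnar1, for a subunit of the interferon receptor, read 3.17, 4.66 and 3.60, and the position of these probes relative to the mutations is unknown here. The array medians were 0.964, 0.959 and 0.958 in the same order. Of 11 hepatocyte and 14 erythroid markers on the array, 0 lay at or below the floor in all 3 arrays, with Afp at 568, 885 and 583 and Hbb-bt at 993, 895 and 1032. Afp encodes α-fetoprotein of fetal hepatocytes and Hbb-bt an adult β-globin.

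Of the 34 subunit genes, 32 lay above the array median in all 3 arrays, and these 32 entered every comparison, so none entered through a single bright array. They lay between 13.1 and 181 units in the double-deficient array, between 12.3 and 139 in the DNase II-deficient array and between 15.7 and 168 in the wild-type array. The other 2 are Psma8 and Psmd11. Psma8, the testis form of an α subunit, read 0.828, 0.657 and 0.848 in the double-deficient, DNase II-deficient and wild-type arrays, below the median of each. Psmd11, a lid subunit, lay below the 25th percentile in all 3 arrays and has no measured level here. Psmd12 alone had 2 probes. The brighter one, which stands for the gene, read 62.8, 42.7 and 68.1, and the dimmer one, close to the array median, read 1.19, 1.12 and 1.10 and did not show the same difference.

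**Figure D1:**
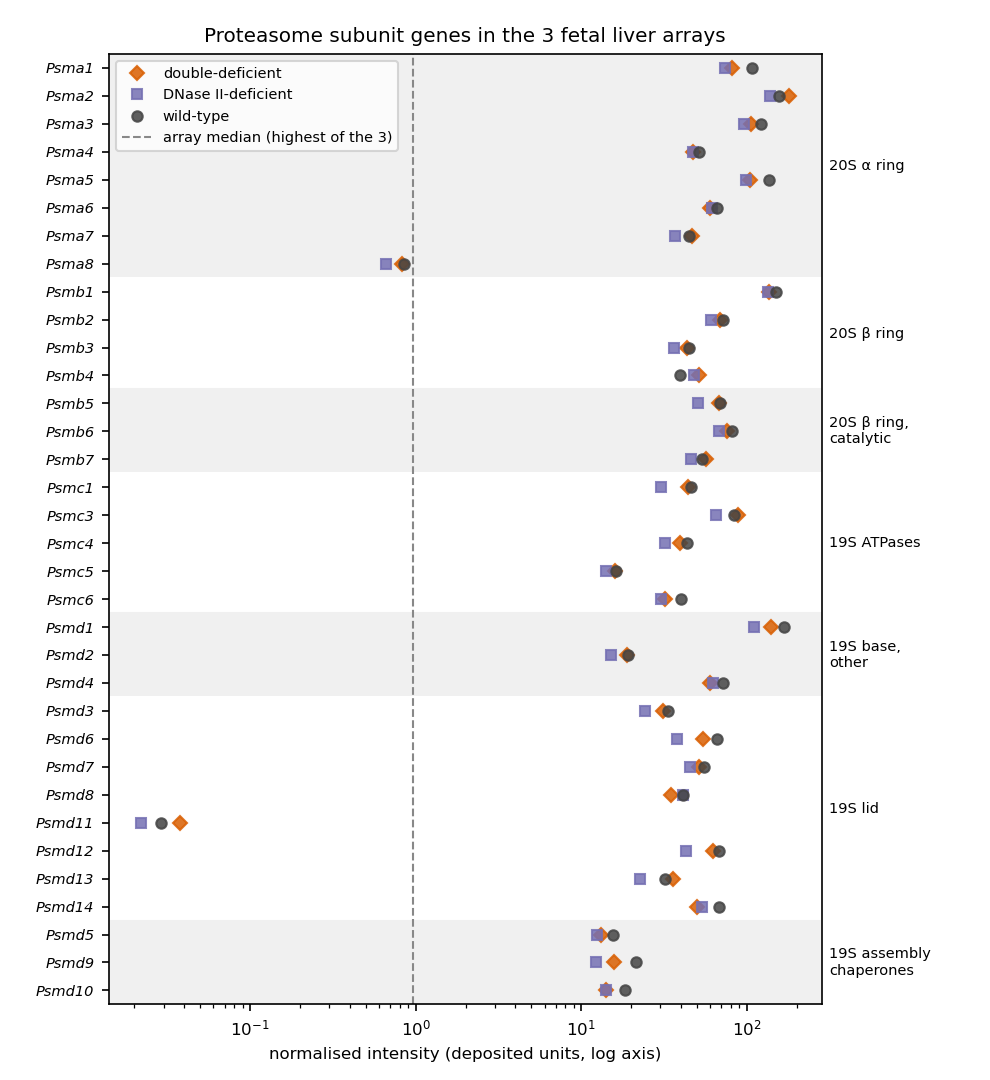
Normalised intensity (deposited units, log axis) of the 34 subunit genes, grouped by their place in the proteasome, in the double-deficient (diamonds), DNase II-deficient (squares) and wild-type (circles) arrays, 1 point per array. In 32 genes the points lie above the array median (dashed line) and close together, and Psma8 and Psmd11 lie below it.

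The comparison of the DNase II-deficient with the wild-type array asks whether the subunit genes differ in livers that cannot digest engulfed DNA. The differences were small. As deposited, 31 of the 32 compared subunit genes read lower in the DNase II-deficient array, with a median log2 difference of -0.34. The size of the group difference depended on how the arrays were put on one scale. After cyclic loess 18 of 32 were lower and the median was -0.02. The median stayed below 0 under each of the 5 scalings. Among all 8383 genes compared, 65.7% were lower as deposited and the median was -0.21, so the subunit genes lay 0.13 below the typical gene. The subunit median less the all-gene median shrank to -0.05 after cyclic loess and -0.02 after quantile normalisation. Psmb4 was the exception, and Psmd8, a lid subunit counted among the 31, read 41.2 units in both arrays.

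No subunit gene reached a 2-fold difference in this comparison, in which 7.67% of all genes passed 2-fold upward and 6.17% downward. At 1.5-fold, 0 of 32 were higher, against 13.3% of all genes, and 5 of 32 (15.6%) were lower, against 20.2%. The share of lower subunit genes was thus not above the background. Another 10 of 32 lay within 1.2-fold, as did 33.6% of all genes. The log2 differences of the 32 ranged from -0.81 to 0.27. The spread among the 500 genes nearest in level (the scaled median absolute deviation of their difference) was typically 0.40 for these subunits, and 20 of 32 lay within it of 0. The share of all genes that lay within their spread of 0 was not counted. That spread describes these arrays and not replicates.

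The 5 genes past 1.5-fold all belong to the 19S particle or its assembly. Psmd6, a structural subunit of the lid, read 37.7 in the DNase II-deficient and 66.3 in the wild-type array, 1.76-fold lower. Psmd9, a chaperone that helps to assemble the base in human and yeast cells, read 12.3 and 21.4, 1.73-fold lower. Psmd12, another lid subunit, read 42.7 and 68.1 on its brighter probe, 1.59-fold lower. These were the genes of the group with the greatest distance below wild-type. Psmc1, an ATPase of the base, read 30.2 and 46.2, 1.53-fold lower. Psmd1, the large scaffold of the base, read 111 and 168, 1.52-fold lower. Relative to the median of all genes each of the 5 lay further down than the spread at its level, Psmd1 only just (-0.394 against 0.390). The 5 were picked for being at least 1.5-fold lower, which largely fixes that outcome, so it is no separate check on them. Of the 32 compared subunit genes 6 lay further from that median than their spread, these 5 and, above it, Psmb4. The share of all genes that did so was not counted. Under cyclic loess and quantile scaling 0 of the 5 passed 1.5-fold, although all 5 kept a negative difference under each of the 5 scalings, between -0.25 and -0.50 after loess.

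To show what lies before the start sites of these 5 genes and of Psmb4, the gene of the group that read higher, their promoters were taken from the RefSeq table (mouse build GRCm38.p6). Each line gives 150 bases ending at the base before the annotated start site, 5′ to 3′ on the gene's strand. Capitals mark CCGGAAG or its reverse complement, the core of sites bound by ETS factors, and, in Psmd9, TGACNNNGC, the core of the antioxidant response element through which NRF1 and NRF2 act.
Psmd6 (chr14:14120946-14121095, minus strand): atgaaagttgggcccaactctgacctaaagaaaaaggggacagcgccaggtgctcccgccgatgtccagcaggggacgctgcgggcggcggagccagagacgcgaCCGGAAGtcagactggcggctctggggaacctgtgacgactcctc
Psmd9 (chr5:123228040-123228189, plus strand): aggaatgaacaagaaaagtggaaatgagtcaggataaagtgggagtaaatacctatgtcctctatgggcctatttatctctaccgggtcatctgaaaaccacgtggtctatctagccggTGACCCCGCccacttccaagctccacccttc
Psmd12 (chr11:107479378-107479527, plus strand): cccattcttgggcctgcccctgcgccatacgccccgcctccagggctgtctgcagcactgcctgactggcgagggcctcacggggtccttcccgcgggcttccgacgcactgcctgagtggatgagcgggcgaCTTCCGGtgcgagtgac
Psmc1 (chr12:100110052-100110201, plus strand): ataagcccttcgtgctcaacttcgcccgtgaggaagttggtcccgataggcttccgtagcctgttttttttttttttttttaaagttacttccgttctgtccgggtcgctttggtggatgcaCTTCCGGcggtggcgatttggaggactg
Psmd1 (chr1:86064469-86064618, plus strand): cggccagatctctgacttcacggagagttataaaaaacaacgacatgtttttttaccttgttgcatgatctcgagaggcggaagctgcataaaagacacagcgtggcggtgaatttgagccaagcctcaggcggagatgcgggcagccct
Psmb4 (chr3:94886959-94887108, minus strand): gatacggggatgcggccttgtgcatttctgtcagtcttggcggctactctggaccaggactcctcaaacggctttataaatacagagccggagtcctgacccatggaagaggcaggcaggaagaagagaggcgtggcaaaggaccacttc

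Promoter windows, which run from 250 bases before to 50 after the start site, were found for 27 of the 34 genes, 28 windows in all. The ETS core, searched on both strands, was in 9 of 28 subunit windows (32.1%), against 8.86% of all 32851 windows in the table. The GC box (GGGCGG) was in 64.3% of subunit windows, against 35.7% of all. The antioxidant response element core was in 5 windows (17.9%, against 12.4%), those of Psmb5, Psmb6, Psmc6, Psmd9 and Psmd12. CCAAT stood in 35.7% of subunit windows, against 37.4% of all, TATAAA in 10.7%, against 13.6%, and GAAANNGAA, the core of interferon response elements, in 14.3%, against 8.56%. Subunit windows were also richer in CpG than the rest, with a median observed over expected ratio of 0.794, against 0.384, and a median GC content of 55.8%, against 52.7%. The shares were not adjusted for this base composition, and motif letters can overlap. A match describes the letters only, and the 5 members with the antioxidant core (median -0.43, from -0.79 to -0.26) overlapped in log2 difference with the 21 compared members whose windows lack it (median -0.33, from -0.81 to 0.27).

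By place in the proteasome, the core had a higher median difference from wild-type than the regulatory particle. The 14 compared core genes had a median log2 difference of -0.25 and the 18 compared Psmc and Psmd genes -0.39. The gap between the medians was -0.14 as deposited, -0.18 after cyclic loess and -0.20 after quantile normalisation. After loess the medians were 0.09 for the core and -0.09 for the Psmc and Psmd genes, so neither stood clearly nearer to wild-type. After quantile normalisation they were 0.03 and -0.16. The other scalings shift all genes alike and cannot alter the gap. The 2 sets overlapped widely, and the gap was not tested.

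In the α ring, Psma1 had the greatest difference, at 73.5 units in the DNase II-deficient and 107 in the wild-type array. Psma5 read 98.4 and 137, and Psma3 read 95.6 and 122. These 3 were below 0 under all 5 scalings, Psma3 at only -0.0045 after loess. The other 4 compared α genes were closer to wild-type: Psma7 read 36.8 and 44.6, Psma2, Psma4 and Psma6 lay between -0.17 and -0.11 on the log2 scale as deposited, and all 4 lay above 0 after loess.

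Among the β subunits without cutting sites, Psmb1 (134 and 149), Psmb2 (60.9 and 71.6) and Psmb3 (36.2 and 44.7) were lower by 0.16 to 0.30 on the log2 scale as deposited and above 0 after loess. Psmb4, also a β subunit without a cutting site, read 47.9 in the DNase II-deficient and 39.6 in the wild-type array, 1.21-fold higher. It was the only one of the 32 above 0 under all 5 scalings, with 0.27 as deposited and 0.60, past 1.5-fold, after loess.

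The 3 cutting subunits were lower by less than 1.5-fold. Psmb5, which cuts after hydrophobic residues, read 50.9 in the DNase II-deficient and 68.7 in the wild-type array. Psmb6, which cuts after acidic residues, read 68.1 and 81.6, and Psmb7, which cuts after basic residues, read 46.1 and 53.4. Only Psmb5 kept its negative difference after loess (-0.10). The immunoproteasome forms that take these positions went the other way: Psmb8 read 49.9 and 4.99, Psmb9 12.2 and 1.88, and Psmb10 44.3 and 19.9. For the β5 position the log2 differences were thus 3.32 for Psmb8 and -0.43 for Psmb5. Levels of different probes cannot be set against each other, so these values do not give the share of either form.

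**Figure D2:**
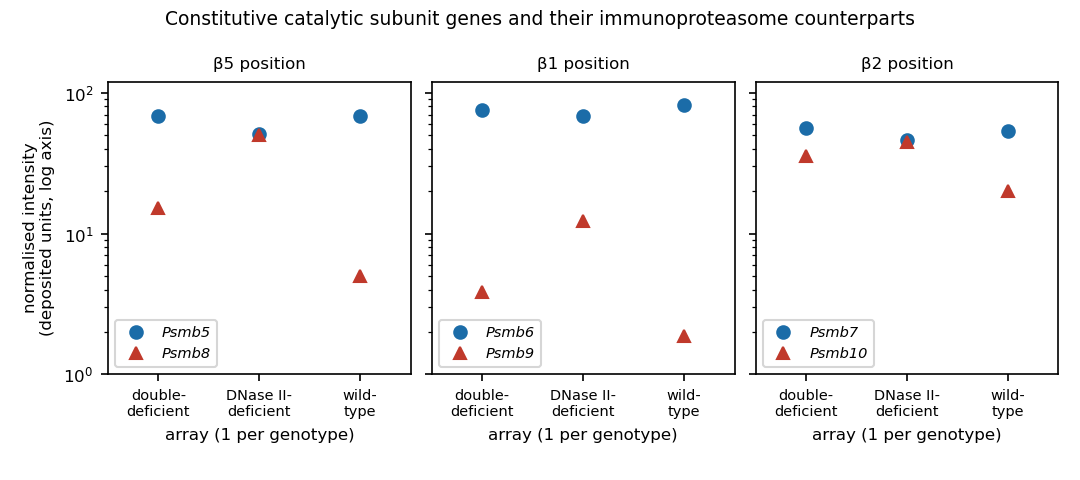
Normalised intensity (deposited units, log axis) of the constitutive cutting subunit genes (circles) and of the immunoproteasome genes that take their positions (triangles), in the double-deficient, DNase II-deficient and wild-type arrays, 1 point per array. The constitutive genes lie between 46.1 and 81.6 units throughout, while Psmb8 reads 15.3, 49.9 and 4.99, and heights of different genes are not comparable.

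In the ring of ATPases, which unfold the substrate, all 5 measured genes were lower in the DNase II-deficient array as deposited, with a median of -0.40, and Psmc5 turned positive after loess (0.10). Beside Psmc1, Psmc4 read 32.0 and 43.7, Psmc6 30.2 and 39.8, and Psmc3 65.2 and 84.0, while Psmc5 lay closest to wild-type at 14.2 and 16.2. Psmc2 was not analysed here. Of the other base subunits, the scaffold Psmd2 read 15.2 and 19.1, and the ubiquitin receptor Psmd4 read 62.3 and 71.9, a difference of -0.21, close to the median of all genes, and 0.12 after loess.

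The lid, which carries the enzyme that removes ubiquitin, held differences from -0.81 (Psmd6) to -0.00 (Psmd8) as deposited. Psmd13 read 22.8 in the DNase II-deficient and 32.1 in the wild-type array, and Psmd3 read 24.1 and 33.4. Psmd14, the ubiquitin-removing enzyme itself, read 53.3 and 67.7, and its partner Psmd7 read 45.7 and 54.8. Their differences lay between -0.50 and -0.26, less than those of Psmd6 and Psmd12, and Psmd7 turned positive after loess (0.06), as did Psmd8 (0.32). The assembly chaperones Psmd5 (12.5 and 15.7) and Psmd10, also known as gankyrin (14.2 and 18.5), differed less than Psmd9.

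**Figure D3:**
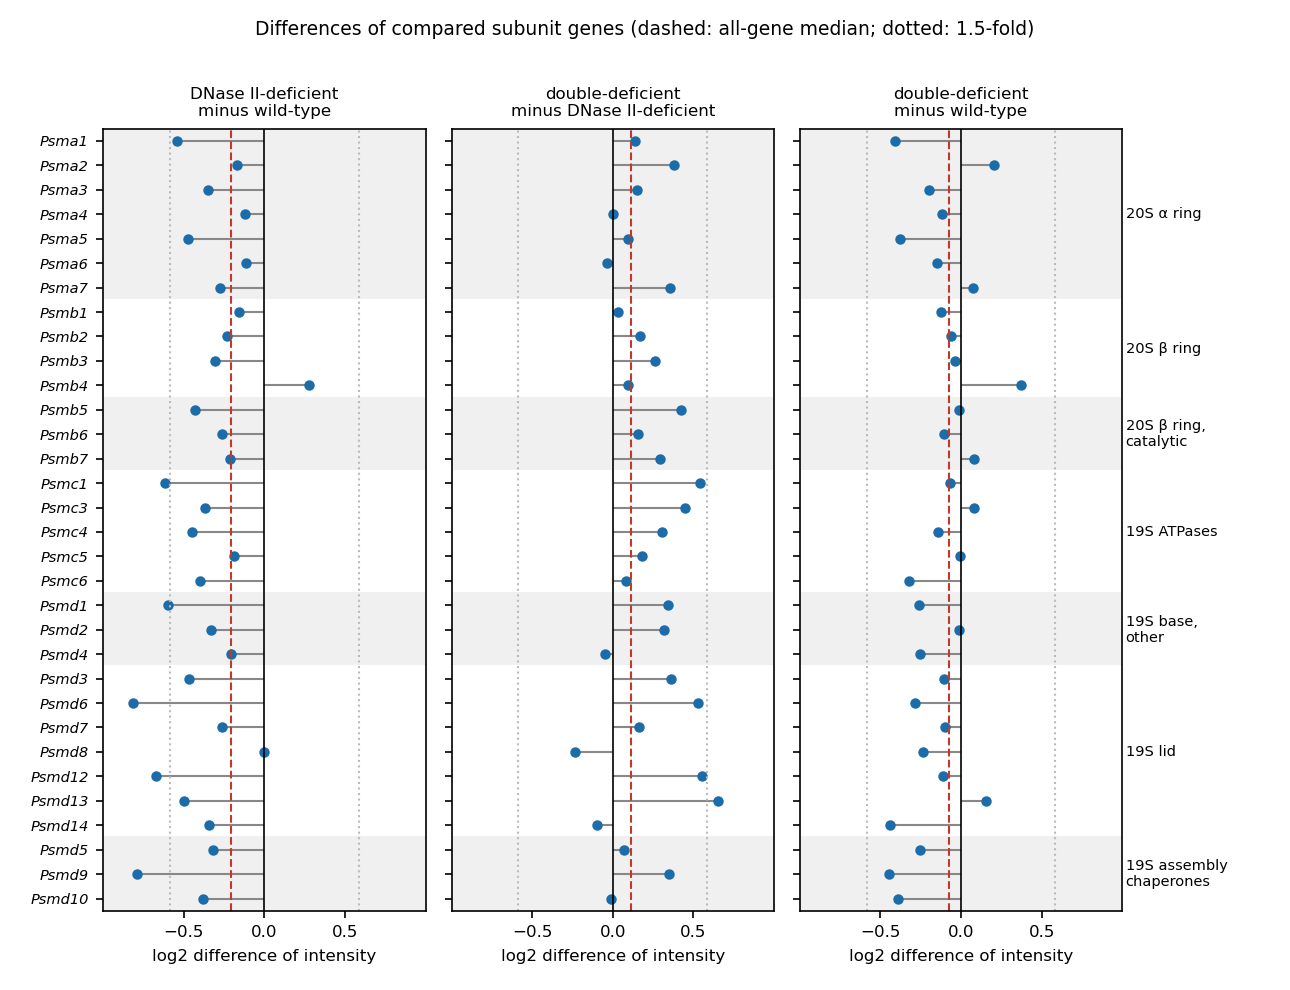
Log2 differences of the 32 compared subunit genes as deposited, for each pair of genotypes, with the median of all genes compared (dashed) and 1.5-fold (dotted). In DNase II-deficient minus wild-type 31 of 32 lie below 0, where the median of all genes is itself -0.21, against 18 of 32 after cyclic loess. In double-deficient minus DNase II-deficient 27 lie above 0, against 15 after loess.

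The comparison of the mutants asks what the added loss of the interferon receptor alters. As deposited, 27 of 32 subunit genes read higher in the double-deficient than in the DNase II-deficient array and 5 lower, with a median log2 difference of 0.17, and after cyclic loess 15 were higher and the median was -0.02. Of all 8303 genes compared, 39.1% were lower, and the median was 0.11. At 1.5-fold, 1 of 32 subunit genes was higher, against 12.5% of all genes, and 0 were lower, against 10.0%. At 2-fold there were none in either direction, against 3.11% and 4.85%.

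The gene past 1.5-fold was Psmd13, at 35.8 units in the double-deficient and 22.8 in the DNase II-deficient array, 1.57-fold higher. It was 0.46 higher after loess and below 1.5-fold under each of the 4 other scalings. Psmd12 (62.8 and 42.7), Psmc1 (44.0 and 30.2) and Psmd6 (54.3 and 37.7) followed, 1.47-fold, 1.46-fold and 1.44-fold higher. The DNase II-deficient array enters this comparison and the one with wild-type, so a low reading on that 1 array would give both differences. The 5 genes below 0 were Psmd8, at 35.0 and 41.2, and with smaller differences Psmd14, Psmd4, Psma6 and Psmd10. These 5 stayed below 0 under all 5 scalings. Psmb5 was 1.34-fold higher in the double-deficient array, whereas Psmb8 had a log2 difference of -1.70.

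In this comparison the regulatory particle differed more than the core, with medians of 0.31 over 18 genes and 0.15 over 14. The gap was 0.16 as deposited and after quantile normalisation and 0.17 after loess, while the core median turned to -0.06 after loess. Of the ATPases, Psmc3 read 89.0 units in the double-deficient and 65.2 in the DNase II-deficient array, and Psmc4 read 39.5 and 32.0. Psmc5 (16.1 and 14.2) and Psmc6 (31.9 and 30.2) were closer, and both were below 0 after loess. The base scaffold Psmd1 read 140.1 and 111, 1.27-fold higher, and Psmd2 was 1.25-fold higher than its 15.2 units in the DNase II-deficient array. In the lid, Psmd3 read 31.0 and 24.1 and Psmd7 51.1 and 45.7, whereas the ubiquitin-removing Psmd14 read 49.8 and 53.3. The lid therefore held both the highest and the lowest difference of the 32 genes, Psmd13 and Psmd8. Of the assembly chaperones, Psmd9 read 15.7 and 12.3, Psmd5 13.1 and 12.5, and Psmd10 14.1 and 14.2.

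In the core, the α subunits Psma2 (181 and 139) and Psma7 (47.0 and 36.8) were 1.30-fold and 1.28-fold higher in the double-deficient array. Psma1 (80.8 and 73.5), Psma3 (106 and 95.6) and Psma5 (105 and 98.4) differed less and lay below 0 after loess. Psma4 was level at 47.1 and 47.0, and Psma6 read 59.9 and 61.3. The cutting subunits Psmb5 (68.2 and 50.9), Psmb6 (75.9 and 68.1) and Psmb7 (56.4 and 46.1) were higher as deposited, and Psmb6 turned to -0.05 after loess. Of the other β subunits, Psmb3 read 43.5 and 36.2, and Psmb2 (68.4 and 60.9), Psmb1 (137 and 134) and Psmb4 (51.2 and 47.9) lay within 1.2-fold. After loess only Psmb3 of these 4 was above 0.

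**Figure D4:**
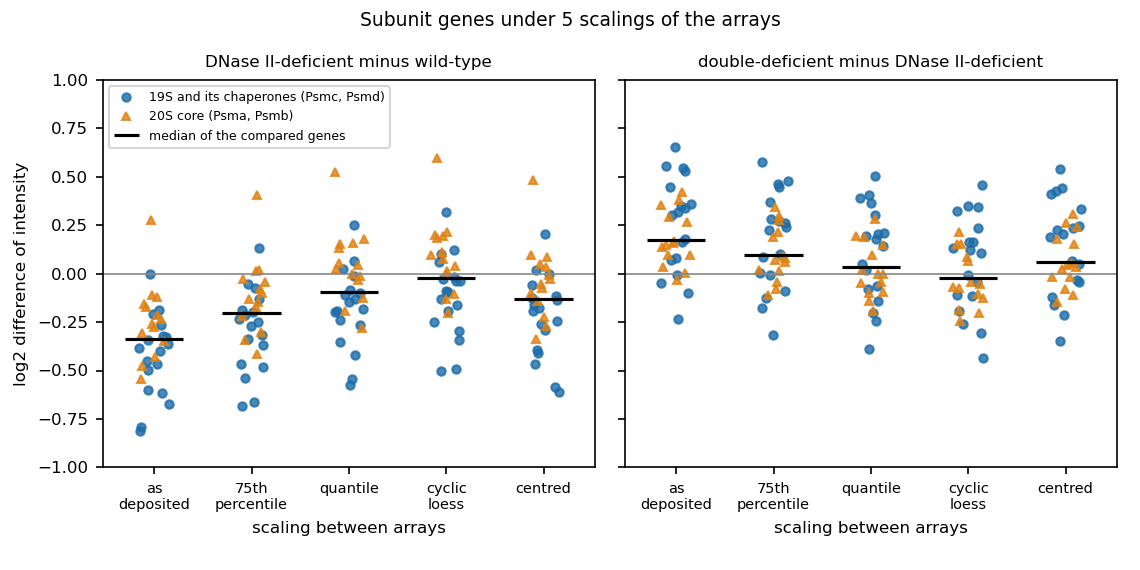
Log2 differences of the 32 compared subunit genes under 5 scalings of the arrays, with 19S genes and their chaperones (circles), 20S core genes (triangles) and the median of the 32 (bars). The median of DNase II-deficient minus wild-type is -0.34 as deposited and -0.02 after cyclic loess, and that of double-deficient minus DNase II-deficient is 0.17 and -0.02.

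The double-deficient and wild-type arrays differed least. The median log2 difference of the subunit genes was -0.12 as deposited and 0.00 after loess, against -0.08 for all 8158 genes compared. As deposited 26 of 32 were lower and 6 higher, and after loess 15 were lower, where 61.1% of all genes compared were lower as deposited. None of the 32 reached 1.5-fold, against 4.89% of all genes higher and 4.85% lower, and none reached 2-fold, against 2.05% and 0.735%. Of the 32, 24 lay within 1.2-fold, as did 62.2% of all genes. Psmd9 had the lowest difference, -0.44, at 15.7 units in the double-deficient and 21.4 in the wild-type array. Psmd14 read 49.8 and 67.7, and Psma1 80.8 and 107. Psmb4 was again the highest, at 51.2 and 39.6, a log2 difference of 0.37 and 1.29-fold.

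As deposited, 26 of the 32 genes had their lowest of the 3 readings in the DNase II-deficient array. The same held for 56.9% of the genes compared in all 3 comparisons. In 21 of these 26 the order was wild-type highest and double-deficient between, and in 5 the double-deficient array was highest, among them Psmd13, Psmc3 and Psma2. Another 5 genes were lowest in the double-deficient array: Psma6, Psmd4, Psmd8, Psmd10 and Psmd14. Psmb4 was the only gene lowest in wild-type, and no subunit gene was highest in the DNase II-deficient array. The shares of all genes with these orders were not counted. These orders held as deposited only and changed with the scaling. After cyclic loess Psma6 and Psmd8, among others, were highest in the DNase II-deficient array. Their loess differences were 0.22 and 0.32 in DNase II-deficient minus wild-type and -0.24 and -0.44 in double-deficient minus DNase II-deficient. Psma2 became lowest in wild-type after loess, while Psmd6 stayed lowest in the DNase II-deficient array.

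Other abundant protein machines are given for scale. In DNase II-deficient minus wild-type the 64 compared oxidative phosphorylation genes had a median log2 difference of -0.37 as deposited and -0.03 after loess, and 14 of them (21.9%) were at least 1.5-fold lower. The 60 compared cytosolic ribosomal protein genes had medians of -0.14 and 0.22, and 7 (11.7%) were at least 1.5-fold lower. Of all genes compared, 20.2% were at least 1.5-fold lower. The subunit genes, at -0.34 and -0.02, lay close to the first of these sets. The differences between the sets were not tested.

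Some markers of the cell types in this tissue differed between the same arrays, and others little. All 14 erythroid markers were lower in the DNase II-deficient than in the wild-type array, as were 65.7% of all genes compared. Of the 14, 10 (71.4%) were at least 1.5-fold lower, against 20.2% of all genes, and their median log2 difference was -1.24. Their summed level was 1597 units, against 2264 in wild-type, with 2057 in the double-deficient array. Most of each sum came from Hba-a1 (482 in the DNase II-deficient and 632 in the wild-type array) and Hbb-bt (895 and 1032). Both differed less than that median. Of 18 compared cell cycle genes, all 18 were lower, 13 of them (72.2%) at least 1.5-fold, against 20.2% of all genes. Their sums over 20 genes were 676 and 1249, and 984 in the double-deficient array. The summed level of the 34 subunit genes was 1662 in the DNase II-deficient and 2102 in the wild-type array, and 1930 in the double-deficient array. These sums are as deposited. After cyclic loess the median log2 difference from wild-type in the DNase II-deficient array was -0.96 for erythroid markers and -0.50 for cell cycle genes. For the subunit genes it was -0.02. The 9 granulocyte markers summed to 786 and 276, and 632 in the double-deficient array. The 11 hepatocyte markers summed to 3601 in the DNase II-deficient and 3498 in the wild-type array, and 3167 in the double-deficient array, and their median log2 difference was 0.12 in DNase II-deficient minus wild-type. Macrophage markers (12 on the array) summed to 212 and 189, and 211 in the double-deficient array, but their members went opposite ways. Of 11 compared between the DNase II-deficient and the wild-type array, 4 (36.4%) passed 1.5-fold upward, against 13.3% of all genes. Another 3 (27.3%) passed it downward, against 20.2%. Marco, a scavenger receptor, read 3.98 and 41.1, and Cd5l, a secreted macrophage protein, 3.41 and 30.6, while Lyz1, a lysozyme, read 43.5 and 15.2. None of the markers in these lists lay at or below the floor in all 3 arrays. The part of cell makeup in the subunit values was not tested, and in bulk RNA fewer cells of a type cannot be told apart from less RNA per cell.

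Genes that assemble or regulate the proteasome were given from lists chosen for the pathway. The 4 core assembly factors on the array were all lower in the DNase II-deficient array as deposited, as were 65.7% of all genes compared. Psmg1, whose product helps to build the α ring, read 17.7 and 29.2 in the DNase II-deficient array and the wild-type array, 1.65-fold lower, while Psmg3 read 12.7 and 18.3, Psmg2 11.5 and 15.3, and Pomp, the maturation factor of the core, 72.3 and 88.0. Pomp turned positive after loess (0.05). Psmg1 read 27.8 in the double-deficient array.

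Of the 4 activator and inhibitor genes, 2 were at least 1.5-fold higher and 0 lower in the DNase II-deficient array. Of all genes, 13.3% were so higher and 20.2% lower. Psme1 and Psme2, the interferon-responsive activator subunits, read 125 and 65.6 and 45.2 and 25.9 in the DNase II-deficient array and the wild-type array, 1.90-fold and 1.74-fold higher. Psme3, the nuclear activator, was nearly equal at 29.7 and 30.2. Psmf1, an inhibitor of the core, read 4.67 in the double-deficient and 2.75 in the DNase II-deficient array, 1.70-fold higher. Psme1 and Psme2 were thus higher where the constitutive subunits as deposited were lower, and Psme3 turned to 0.28 after loess.

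Among the 6 measured proteasome-bound receptors and deubiquitinases, 2 (33.3%) were at least 1.5-fold lower in the DNase II-deficient array, against 20.2% of all genes. Usp14, which trims ubiquitin chains at the particle, read 11.5 and 21.2 in the DNase II-deficient array and the wild-type array, 1.84-fold lower, and Txnl1, a thioredoxin-like protein of the regulatory particle, 65.0 and 101. Uchl5, another deubiquitinase, read 17.1 and 24.1. Usp14 read 13.9 in the double-deficient array, 1.53-fold below wild-type. Upstream, Vcp, the p97 ATPase that extracts tagged proteins from membranes and complexes, read 27.3 and 49.2, 1.81-fold lower. It was the 1 of 5 genes of that list at least 1.5-fold lower (20.0%), near the 20.2% of all genes. Ubqln1, a shuttle that carries tagged proteins to the particle, read 11.8 and 19.6 on its brightest of 4 probes, a log2 difference of -0.73. Its next brightest probe read 8.30 and 9.67, a smaller difference (-0.22). A dimmer probe read 0.539 and 0.975 (-0.86), and the dimmest lay below the floor in both arrays. Of 3 compared shuttle genes, 2 were lower and 1 higher in the DNase II-deficient array. Uba6, a ubiquitin-activating enzyme and the only measured gene of its list, read 6.99 and 7.87, with the opposite direction after loess (0.08).

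Regulators of proteasome gene expression were listed too. Nfe2l2, encoding NRF2, read 23.6, 23.9 and 25.6 in the double-deficient, DNase II-deficient and wild-type arrays. Nfe2l1, encoding NRF1, which drives subunit genes when proteasome activity is blocked, lay below the array median at 0.619, 0.884 and 0.613. Both were named after their values were seen. Ngly1, the enzyme that activates NRF1, read 2.67 and 4.32 in the DNase II-deficient array and the wild-type array, 1.62-fold lower. It was the 1 of 5 compared regulators at least 1.5-fold lower (20.0%), near the 20.2% of all genes. At that cut 0 were higher, against 13.3%. Of 7 compared NRF2 target genes, 3 were at least 1.5-fold higher in the DNase II-deficient array, against 13.3% of all genes. At that cut 0 were lower, against 20.2%. The list was not uniform, with 5 of the 7 above 0 and 2 below, down to -0.30. Me1, malic enzyme, was 4.15-fold higher than in wild-type, Hmox1, heme oxygenase, read 78.0 and 43.6, and Srxn1, sulfiredoxin, 1.90 and 1.15. Of 16 protein-folding chaperones and their partners, 1 was at least 1.5-fold higher, Bag3 (1.26 and 0.836), and 1 lower, Hspd1 (90.4 and 146), which resides in mitochondria. Each is a share of 6.25%, against 13.3% of all genes higher and 20.2% lower.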

How the data were processed

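Fetal liver RNA of 3 genotypes was measured on 3 CodeLink arrays, 1 per genotype. Per the labels, poly(A) RNA was labelled with biotin and scans were read with CodeLink System Software. The authors deposited 1 normalised intensity per probe and array, on a linear scale, and how they normalised and subtracted background is not stated in the labels. The small number of arrays limits precision.

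From the 20289 probes, 125 with a missing value were dropped. Symbols came from the platform annotation (15120 probes with 1 symbol, 38 with several, 5131 with none). All 35 member probes matched the RefSeq gene table by Entrez identifier. The brightest probe stood for a gene. Values were floored at each array's 25th percentile, log2 transformed and differenced, and genes brighter than the array median in either array of a pair were compared, by counts at 1.5-fold and 2-fold and by medians, with no test. Alternatives were quantile normalisation and cyclic loess (limma 3.58.1), 75th percentile scaling, centring, a floor at the median, no filter, each probe on its own, and symbols past the digit. The steps were tested on simulated data with planted differences of at least 2-fold, little noise and no shift of scale between arrays. That test does not cover differences as small as those of the subunit genes, or the effect of scaling. Every member is described, and of other lists the genes named are those with the largest differences (up to 3 per list and comparison), except Psme3, Nfe2l1, Nfe2l2 and the cell type markers, named after their values were seen. Members and lists were chosen with earlier results of these data known.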

Additional observations from a re-analysis of the deposited data

How the results depend on the processing

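Most differences between settings came with the scaling of the arrays. For DNase II-deficient minus wild-type the subunit median of -0.34 became -0.092 with quantile normalisation, -0.024 with cyclic loess and -0.13 with centring. The 5 subunit genes at least 1.5-fold lower became 0 with quantile normalisation and cyclic loess and 2 (Psmd6 and Psmd9) with 75th percentile scaling and centring, and 1 (Psmb4) was higher with loess where 0 were as deposited. All genes at least 1.5-fold lower numbered 1695 as deposited, 886 with loess and 954 with centring. For double-deficient minus DNase II-deficient the subunit median of 0.17 became -0.023 with loess, and its distance from the all-gene median of 0.06 became -0.0039 with quantile normalisation. The 1 subunit gene at least 1.5-fold higher became 0 with quantile normalisation, 75th percentile scaling, cyclic loess and centring, and all genes so higher numbered 638 with loess, against 1038 as deposited. For double-deficient minus wild-type the subunit median of -0.12 became 0.0048 with loess, and its distance from the all-gene median of -0.04 became 0.0076 with quantile normalisation. All genes at least 1.5-fold higher numbered 726 and lower 636 without a filter, against 399 and 396, and 259 were lower with centring. Without a filter more genes are counted, and for the scalings the cause was not tested. The dimmer Psmd12 probe gave 0.022 where the brighter gave -0.67. Apart from that probe, no difference of the 32 compared subunit genes moved between the deposited and an alternative setting by more than the spread at its level. Psma8 and Psmd11 were not compared and have no such spread. No paired analysis was possible because each genotype has 1 array.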
